A study of Mus musculus with 9 samples.

Results

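Lcn2, Saa1, Saa2, Saa3, Hp, Pigr and Gc encode proteins of the acute phase response and of mucosal defence, and they are 7 of the 24493 genes in the expression table. They were taken by gene symbol, and they were proposed with their values in these samples in view, so their levels and differences are given as a description with no test. The 3 groups compared, of 3 samples each, were Usp22-KOA, Usp22-KOB and wild type (WT). All were tumor cells of the mouse pancreatic cancer clone 6419c5 on a C57BL/6 background, labelled late stage and taken from tumors implanted under the skin. Usp22, the gene named in both knockouts, encodes a ubiquitin protease that works within the SAGA coactivator complex. The labels leave unsaid what the letters A and B mean, how old the mice were, whether each sample came from its own mouse, or by what method tumor cells were isolated. All samples derive from 1 clone, and the p-values below reflect the variation among these 9 samples alone, which may be technical.

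In the acute phase response, cytokines such as interleukin 6 and interleukin 1 act through STAT3, C/EBP and NF-kB proteins and raise the output of a set of secreted plasma proteins, mainly from the liver. Epithelia and white blood cells make some of the same proteins at sites of injury. Lcn2 (lipocalin 2) binds bacterial siderophores and so withholds iron. Saa1, Saa2 and Saa3 are serum amyloid A proteins. Hp (haptoglobin) captures free haemoglobin. Pigr, the polymeric immunoglobulin receptor, carries IgA and IgM across epithelial cells into secretions. Gc, the vitamin D-binding protein, carries vitamin D metabolites in plasma and scavenges actin.

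Polyadenylated RNA was sequenced, and the deposited values are in TPM, a level per transcript length that is scaled to the same total in every library and can be compared between genes. Each library listed 6520 to 7234 genes at 0. Read depth cannot be recovered from TPM and is unknown, so precision rests on the spread among 3 samples. Usp22 itself ranged from 8.46 to 10.1 TPM in Usp22-KOA, from 11.8 to 14.9 TPM in Usp22-KOB and from 54.5 to 56.4 TPM in WT. The epithelial keratin Krt8 averaged 2474 ± 129 TPM in Usp22-KOA, 2634 ± 318 TPM in Usp22-KOB and 2495 ± 105 TPM in WT (SD, n = 3 each), and Krt19 averaged 2814 ± 258 TPM in Usp22-KOA, 1911 ± 219 TPM in Usp22-KOB and 2065 ± 60.6 TPM in WT. These abundant keratins kept a high level in all groups, but Epcam, an epithelial adhesion protein named here after its values were seen, averaged 37.7 ± 15.2 TPM in Usp22-KOA, 31.3 ± 5.31 TPM in Usp22-KOB and 379 ± 18.4 TPM in WT. The summed level of 10 pan-leukocyte markers was 709 to 1627 TPM in Usp22-KOA, 1370 to 2800 TPM in Usp22-KOB and 616 to 1033 TPM in WT, and that of 12 fibroblast markers 253 to 321 TPM, 914 to 1388 TPM and 583 to 1045 TPM for the same groups, so RNA of other cell types was present. In bulk RNA, fewer cells of a type and less RNA per cell cannot be told apart.

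Of the 7 genes, 5 reached a mean of 1 TPM over the 9 samples and entered the fit across 13843 genes: Lcn2, Saa3, Hp, Pigr and Gc. Saa1 and Saa2 did not. Upstream sequence is shown for the 4 genes whose values did not overlap between at least 1 pair of groups, since sites for acute phase and lineage factors are looked for in this stretch. It runs up to 250 bases before the RefSeq start (GRCm38.p6), 5′ to 3′ on the strand of the gene, with motif matches in capitals. For Lcn2 and Saa3 the last 58 and 24 bases are left out, because GENCODE M21 places them in an exon, and the rest of the Lcn2 stretch overlaps an alternative GENCODE transcript.

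The Pigr sequence (chr1:130826434-130826683, plus strand) and the Gc sequence (chr5:89457899-89458148, minus strand) belong to the genes that were lower in both knockouts:
Pigr: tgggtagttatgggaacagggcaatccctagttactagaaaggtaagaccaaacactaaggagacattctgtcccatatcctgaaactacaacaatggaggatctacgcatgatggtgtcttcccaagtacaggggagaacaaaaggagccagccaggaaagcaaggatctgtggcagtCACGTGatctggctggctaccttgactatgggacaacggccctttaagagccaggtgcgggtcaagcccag
Gc: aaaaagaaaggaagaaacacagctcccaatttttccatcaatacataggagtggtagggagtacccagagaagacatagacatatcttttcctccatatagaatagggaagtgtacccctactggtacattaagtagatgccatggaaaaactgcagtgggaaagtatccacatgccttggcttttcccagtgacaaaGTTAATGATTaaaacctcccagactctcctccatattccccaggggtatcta
The Lcn2 sequence (chr2:32387798-32387989, minus strand) and the Saa3 sequence (chr7:46715701-46715926, minus strand) belong to the genes that ordered the knockouts in opposite ways:
Lcn2: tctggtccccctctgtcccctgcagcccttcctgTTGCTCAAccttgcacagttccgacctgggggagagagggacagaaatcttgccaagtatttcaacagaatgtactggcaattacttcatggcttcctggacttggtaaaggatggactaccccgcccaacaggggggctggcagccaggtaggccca
Saa3: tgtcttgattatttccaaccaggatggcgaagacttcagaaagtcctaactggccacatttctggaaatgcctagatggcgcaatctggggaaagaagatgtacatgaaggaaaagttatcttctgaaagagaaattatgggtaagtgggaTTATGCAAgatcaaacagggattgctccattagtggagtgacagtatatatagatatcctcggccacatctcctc

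Both strands were searched for 6 motifs: STAT (TTCNNNGAA), C/EBP (TTGCNNAA), the E-box (CACGTG), FOXA (TGTTTAC) and the HNF1 and NF-kB consensus sequences. The capitals in Pigr mark an E-box at 71 to 66 bases before the RefSeq start. Those in Gc mark an HNF1 match at 52 to 43 bases, and those in Lcn2 and Saa3 mark C/EBP matches at 216 to 209 and at 99 to 92 bases. Among all 32851 upstream windows of 250 bases, 6.02% held the E-box, 0.371% the HNF1 motif and 9.56% the C/EBP motif. STAT, FOXA and NF-kB motifs were held by 7.02%, 3.17% and 7.25% of windows and had no match in these 4, which says only that those letters are not there. None of the matches overlapped another. The motifs were chosen after the sequences had been seen, and a match describes the sequence, not binding.

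Pigr and Gc had the largest differences from WT of the 5 fitted genes. Pigr (chromosome 1, 130826684 to 130852249 in GRCm38, plus strand, protein coding) stood at 4.85, 4.46 and 8.60 TPM in Usp22-KOA, at 0.885, 1.24 and 1.57 TPM in Usp22-KOB, and at 119.7, 70.3 and 82.4 TPM in WT. All 6 knockout values lay below the 3 WT values, and the knockouts did not overlap each other, with Usp22-KOB the lower. Pigr averaged 5.97 ± 2.29 TPM in Usp22-KOA, 1.23 ± 0.341 TPM in Usp22-KOB and 90.8 ± 25.8 TPM in WT (SD, n = 3 each), which is 6.57% of the WT mean for Usp22-KOA and 1.35% for Usp22-KOB. On log2(TPM + 1), where 1 is a pseudocount that makes differences of low genes look smaller, Pigr differed from WT by -3.73 ± 0.25 in Usp22-KOA and by -5.34 ± 0.25 in Usp22-KOB (SE of the fit). Usp22-KOA minus Usp22-KOB was 1.61 ± 0.25, but 0.80 with a pseudocount of 5 and 2.16 with 0.1.

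Gc (chromosome 5, 89417522 to 89457898, minus strand, protein coding) stood at 0.110, 0.744 and 0.173 TPM in Usp22-KOA, at 1.40, 1.53 and 2.03 TPM in Usp22-KOB, and at 65.9, 91.1 and 62.1 TPM in WT. All 6 knockout values again lay below WT, but here Usp22-KOA was the lower knockout, the reverse of the order in Pigr. Gc averaged 0.342 ± 0.349 TPM in Usp22-KOA, 1.66 ± 0.336 TPM in Usp22-KOB and 73.0 ± 15.8 TPM in WT (SD, n = 3 each), which is 0.468% of the WT mean for Usp22-KOA and 2.27% for Usp22-KOB. The log2 differences from WT were -5.80 ± 0.21 in Usp22-KOA and -4.79 ± 0.21 in Usp22-KOB (SE). Usp22-KOA minus Usp22-KOB was -1.01 ± 0.21, but -0.32 with a pseudocount of 5 and -2.25 with 0.1, since both knockouts lay near or below 2 TPM.

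Lcn2 had the highest mean of the 7 genes over all samples, at rank 601 of 24493, and it lay on opposite sides of WT in the 2 knockouts. Lcn2 (chromosome 2, 32384633 to 32388252, minus strand, protein coding) stood at 397, 396 and 482 TPM in Usp22-KOA, at 43.1, 57.3 and 53.3 TPM in Usp22-KOB, and at 183, 177 and 206 TPM in WT. The 3 groups did not overlap, with Usp22-KOA above WT and Usp22-KOB below it. Lcn2 averaged 425 ± 49.2 TPM in Usp22-KOA, 51.2 ± 7.32 TPM in Usp22-KOB and 189 ± 15.6 TPM in WT (SD, n = 3 each). Usp22-KOA was thus 2.25 times and Usp22-KOB 0.271 times the WT mean, and Usp22-KOA was 8.30 times Usp22-KOB. The log2 differences from WT were 1.16 ± 0.12 in Usp22-KOA and -1.87 ± 0.12 in Usp22-KOB, and Usp22-KOA minus Usp22-KOB was 3.03 ± 0.12 (SE). The mean of both knockouts minus WT, -0.35 ± 0.10, therefore describes neither knockout. Of the 13843 genes tested, 918, or 6.63%, had the knockouts on opposite sides of WT with no overlap, and Lcn2 was the 1 of the 5 fitted genes here that did.

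The serum amyloid A genes are neighbours on chromosome 7. Saa3 (46711998 to 46715700, minus strand, protein coding) stood at 30.1, 37.2 and 29.4 TPM in Usp22-KOA, at 216, 152 and 84.0 TPM in Usp22-KOB, and at 71.2, 58.6 and 106 TPM in WT. Its order was the reverse of that of Lcn2: the Usp22-KOA values lay below all others, while Usp22-KOB overlapped WT through its lowest sample. Saa3 averaged 32.2 ± 4.31 TPM in Usp22-KOA, 151 ± 65.9 TPM in Usp22-KOB and 78.6 ± 24.6 TPM in WT (SD, n = 3 each). The log2 differences from WT were -1.22 ± 0.32 in Usp22-KOA and 0.87 ± 0.32 in Usp22-KOB, and Usp22-KOA minus Usp22-KOB was -2.10 ± 0.32 (SE).

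Saa1 (46740497 to 46742980, minus strand, protein coding) was listed at 0 in all 9 libraries. Saa2 (46751790 to 46754313, plus strand, protein coding) was listed at 0 in 8 of 9, with 0.285 TPM in Usp22-KOB replicate 2. No fold is given for either gene. Their transcripts are alike: 46.8% of the 31-base words in the GENCODE M21 transcripts of Saa1 and 44.5% of those of Saa2 also occur in another gene, so reads could be divided between genes. For Saa3 this share was 7.44%, and for Lcn2, Hp, Pigr and Gc it ran from 0 to 1.02%. The 250 bases upstream of Saa1 and Saa2 were 94.8% identical, against 48.5% for Saa1 and Saa3. Each of the 3 Saa windows held a C/EBP match.

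Hp (chromosome 8, 109575128 to 109579172, minus strand, protein coding) stood at 30.99, 27.4 and 17.7 TPM in Usp22-KOA, at 26.7, 19.9 and 12.9 TPM in Usp22-KOB, and at 18.8, 24.9 and 19.2 TPM in WT. All 3 groups overlapped. Hp averaged 25.4 ± 6.86 TPM in Usp22-KOA, 19.9 ± 6.91 TPM in Usp22-KOB and 20.9 ± 3.42 TPM in WT (SD, n = 3 each), and the SD within each knockout was larger than any distance between the means. The log2 differences from WT were 0.24 ± 0.27 in Usp22-KOA and -0.12 ± 0.27 in Usp22-KOB, and Usp22-KOA minus Usp22-KOB was 0.36 ± 0.27 (SE).

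**Figure D1:**
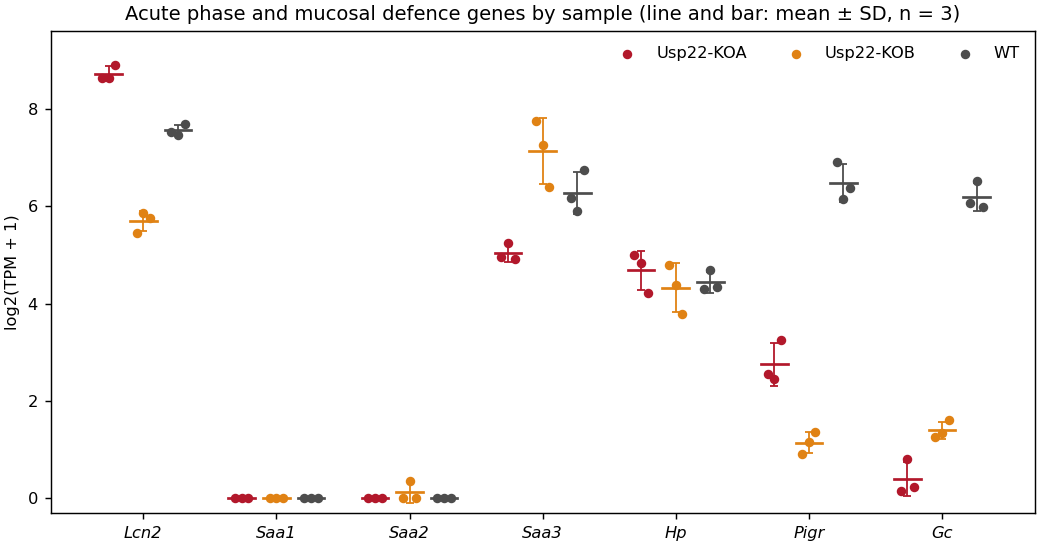
Level of the 7 genes in every sample, as log2(TPM + 1), for Usp22-KOA, Usp22-KOB and WT, with the group mean and SD (n = 3). For Pigr and Gc the 6 knockout samples all lie under WT, Lcn2 and Saa3 have the knockouts in opposite order, Hp overlaps throughout, and Saa1 and Saa2 lie at or near 0.

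The order of the genes by level differed between groups. By mean TPM, Usp22-KOA ran Lcn2, Saa3, Hp, Pigr and Gc, whereas Usp22-KOB ran Saa3, Lcn2, Hp, Gc and Pigr, and WT ran Lcn2, Pigr, Saa3, Gc and Hp. Neighbours in these orders overlapped for Saa3 and Hp in Usp22-KOA, for Gc and Pigr in Usp22-KOB, and for Pigr, Saa3 and Gc in WT, so their places are within the spread. Of the 5 fitted genes, 4 had Usp22-KOA and WT values that did not overlap, where 65.3% of all tested genes did so. For Usp22-KOB and WT it was 3 of 5 against 49.1%, and for Usp22-KOA and Usp22-KOB 4 of 5 against 58.3%. Nothing is read from these counts, because the genes were chosen on these values.

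Markers of other cell types that make these proteins were read beside them. Neutrophils carry Lcn2 and Hp in their granules, and macrophages can make Saa3. The summed level of 15 neutrophil markers stood at 1563, 1107 and 618 TPM in Usp22-KOA, at 528, 491 and 161 TPM in Usp22-KOB, and at 689, 727 and 736 TPM in WT. In both knockouts Hp and this sum had the same order over the 3 samples, and in WT they did not. The same held for the pan-leukocyte sum. The macrophage sum, given below, had the same order over the samples as Hp in all 3 groups, WT included. Between groups the macrophage sum was highest in Usp22-KOB, whereas Hp overlapped. The neutrophil sum averaged 1096 TPM in Usp22-KOA, 717 TPM in WT and 393 TPM in Usp22-KOB, the same order of groups as Lcn2. Its Usp22-KOA values overlapped those of WT, and the single markers were mixed. Of 9 tested, 2 were higher and 1 lower in Usp22-KOA than in WT (limma adjusted p under 0.05). In Usp22-KOB 2 were higher and 2 lower than in WT. Over all tested genes, 56.3% passed in either direction for Usp22-KOA and 37.1% for Usp22-KOB. Within each group Lcn2 and the neutrophil sum ordered the 3 samples differently. In Usp22-KOA the sample with the lowest neutrophil sum, 618 TPM, had the highest Lcn2, 482 TPM. Most of the sum came from S100a8, with 598 ± 274 TPM in Usp22-KOA, 149.6 ± 87.8 TPM in Usp22-KOB and 358 ± 27.9 TPM in WT, and from S100a9, with 346 ± 142 TPM in Usp22-KOA, 98.5 ± 52.6 TPM in Usp22-KOB and 262 ± 6.29 TPM in WT (mean ± SD, n = 3 each). Of the 15, Elane, Mpo, Stfa1 and Stfa2 were listed at 0 in all WT samples, and Elane and Stfa2 in all Usp22-KOB samples.

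The 12 macrophage markers summed to 3058, 2568 and 1221 TPM in Usp22-KOA, to 9536, 9347 and 5363 TPM in Usp22-KOB, and to 1922, 3009 and 2008 TPM in WT, with none at 0 throughout a group. All 12 were higher in Usp22-KOB than in WT (limma, Benjamini-Hochberg adjusted p under 0.05 over all tested genes), and 0 of 12 passed between Usp22-KOA and WT. Over all tested genes, 18.7% were higher in Usp22-KOB than in WT, and 56.3% passed in either direction between Usp22-KOA and WT. Lyz2, the most abundant of them, averaged 1135 ± 523 TPM in Usp22-KOA, 4613 ± 1226 TPM in Usp22-KOB and 1166 ± 246 TPM in WT, and C1qa, a complement subunit, 332 ± 130.5 TPM in Usp22-KOA, 1044 ± 349 TPM in Usp22-KOB and 331 ± 103 TPM in WT (SD, n = 3 each). Saa3 was likewise highest in Usp22-KOB, and within Usp22-KOB it had the same order over the 3 samples as the macrophage sum. Within Usp22-KOA and within WT the orders differed. In WT the sample with the highest macrophage sum, 3009 TPM, had the lowest Saa3, 58.6 TPM. In Usp22-KOA, Saa3 lay below WT while the macrophage sums overlapped those of WT. The sum of the 12 fibroblast markers was 300, 321 and 253 TPM in Usp22-KOA and 1388, 1274 and 914 TPM in Usp22-KOB. In WT it was 591, 583 and 1045 TPM. Within each of the 3 groups this fibroblast sum had the same order over the samples as Saa3, and its group means were ordered likewise. Its single markers did not all move together. By the same limma rule 8 of the 12 were lower and 1 higher in Usp22-KOA than in WT, against 26.9% and 29.4% of all tested genes. In Usp22-KOB 5 were higher and 0 lower, against 18.7% and 18.4%. The 1 higher in Usp22-KOA was Dpt, at 68.9 ± 13.1 TPM against 5.52 ± 0.755 TPM in WT. The part of neutrophil, macrophage and fibroblast RNA in the levels of Hp, Lcn2 and Saa3 was not tested.

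**Figure D2:**
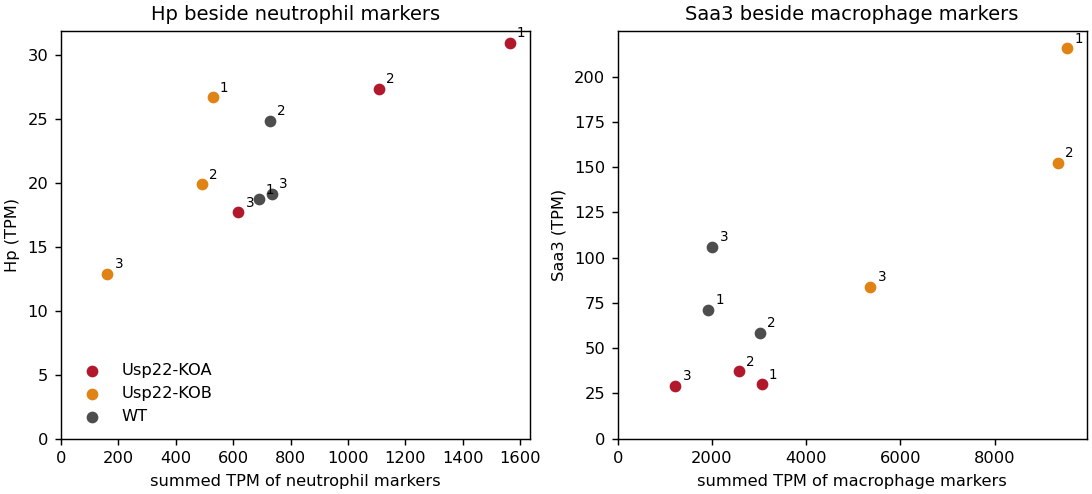
Hp in TPM against the summed TPM of 15 neutrophil markers, and Saa3 in TPM against the summed TPM of 12 macrophage markers, 1 point per sample with its replicate number. Of the Usp22-KOB samples, 2 are highest in both macrophage markers and Saa3, and the Usp22-KOA samples are lowest in Saa3 at macrophage sums that overlap those of WT.

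Pigr and Gc were set beside epithelial and liver markers. The 14 epithelial markers summed to 6561 to 7361 TPM in Usp22-KOA, 7033 to 8615 TPM in Usp22-KOB and 8692 to 9241 TPM in WT. Keratins made up most of these sums, and several single markers fell by more than the sums show. Of the 12 tested, 9 were lower and 2 higher in Usp22-KOA than in WT, with a median log2 difference of -2.18, and 8 were lower and 0 higher in Usp22-KOB, with a median of -1.28. Over all tested genes, 26.9% were lower and 29.4% higher in Usp22-KOA, and 18.4% lower and 18.7% higher in Usp22-KOB. Besides Epcam, the claudin genes Cldn4 and Cldn7, the occludin gene Ocln and the mucin gene Muc1, named after their values were seen, fell in each knockout (limma adjusted p for these 5 genes at most 1.4e-05). The 2 that were higher in Usp22-KOA were Krt19 and Cldn3, another claudin gene. Cldn3 averaged 199 ± 6.75 TPM in Usp22-KOA, 14.3 ± 2.21 TPM in Usp22-KOB and 34.9 ± 4.74 TPM in WT. Cldn4 averaged 1.09 ± 0.393 TPM in Usp22-KOA, 7.79 ± 0.623 TPM in Usp22-KOB and 42.8 ± 3.28 TPM in WT, and Muc1 averaged 49.5 ± 3.84 TPM in Usp22-KOA, 139 ± 23.1 TPM in Usp22-KOB and 603 ± 24.0 TPM in WT (SD, n = 3 each). Cldn7 averaged 10.2 ± 0.164 TPM in Usp22-KOA, 14.2 ± 2.74 TPM in Usp22-KOB and 81.1 ± 5.65 TPM in WT, and Ocln differed from WT by -3.62 ± 0.15 in Usp22-KOA and by -2.32 ± 0.15 in Usp22-KOB on the log2 scale. The part of this shift in the lower Pigr and Gc was not tested. The 12 hepatocyte markers summed to 102 to 205 TPM in Usp22-KOA, 108 to 162 TPM in Usp22-KOB and 183 to 231 TPM in WT, most of it Ttr (transthyretin). Alb (albumin), which defines hepatocytes, averaged 0.547 ± 0.947 TPM in Usp22-KOA, 0.0148 ± 0.0256 TPM in Usp22-KOB and 2.38 ± 1.03 TPM in WT (SD, n = 3 each). The hepatocyte markers Cyp3a11 and Hpd were listed at 0 in all WT samples, and Cps1, Cyp3a11, Hpd and Tat in all Usp22-KOB samples. Jchain, the chain through which Pigr binds polymeric antibody, averaged 10.7 ± 2.63 TPM in Usp22-KOA, 4.95 ± 2.49 TPM in Usp22-KOB and 9.72 ± 5.54 TPM in WT, and its WT values overlapped those of each knockout. Of 10 plasma cell markers 3 were not analysed here, and the other 7 summed to between 386 and 521 TPM over the 9 samples, mostly Sdc1 and Xbp1. The sum of 10 adipocyte markers lay between 40.8 and 60.5 TPM.

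For each of the 5 fitted genes the genes with the most similar profile were found by the root mean square difference of mean-centred log2(TPM + 1) over the 9 samples. The values share libraries and groups, so they carry no test. Nearest to Lcn2 were Nqo1, a quinone reductase, at 0.25 and Rgl3 at 0.33. Nqo1 averaged 41.6 ± 9.34 TPM in Usp22-KOA, 5.31 ± 0.409 TPM in Usp22-KOB and 16.3 ± 1.02 TPM in WT (SD, n = 3 each). Nearest to Saa3 were Vsig4, a complement receptor of tissue macrophages, at 0.21 and Ndufa4l2 at 0.23. Vsig4 averaged 0.337 ± 0.263 TPM in Usp22-KOA, 3.85 ± 1.69 TPM in Usp22-KOB and 2.04 ± 0.604 TPM in WT. Nearest to Hp were Sorl1 at 0.15 and Tuba8 at 0.17.

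Nearest to Pigr was Tff2, a trefoil factor of gastric mucosa, at 0.35. Tff2 averaged 68.0 ± 21.1 TPM in Usp22-KOA, 14.8 ± 4.29 TPM in Usp22-KOB and 708 ± 95.4 TPM in WT (SD, n = 3 each). Nearest to Gc were Pgc, the gastric protease precursor progastricsin, at 0.42 and Gpx2, an epithelial glutathione peroxidase, at 0.52. Pgc averaged 0.102 ± 0.0405 TPM in Usp22-KOA, 1.20 ± 0.0821 TPM in Usp22-KOB and 35.0 ± 0.626 TPM in WT. Among the 5 genes themselves the smallest distance was between Saa3 and Hp at 1.07, followed by Lcn2 and Hp at 1.19 and Pigr and Gc at 1.21. Lcn2 and Gc were farthest apart at 2.87. Hp differed little between groups, so its distances mainly reflect how far the other gene moves and not a shared profile. Saa3 and Lcn2 ordered the knockouts in opposite ways.

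**Figure D3:**
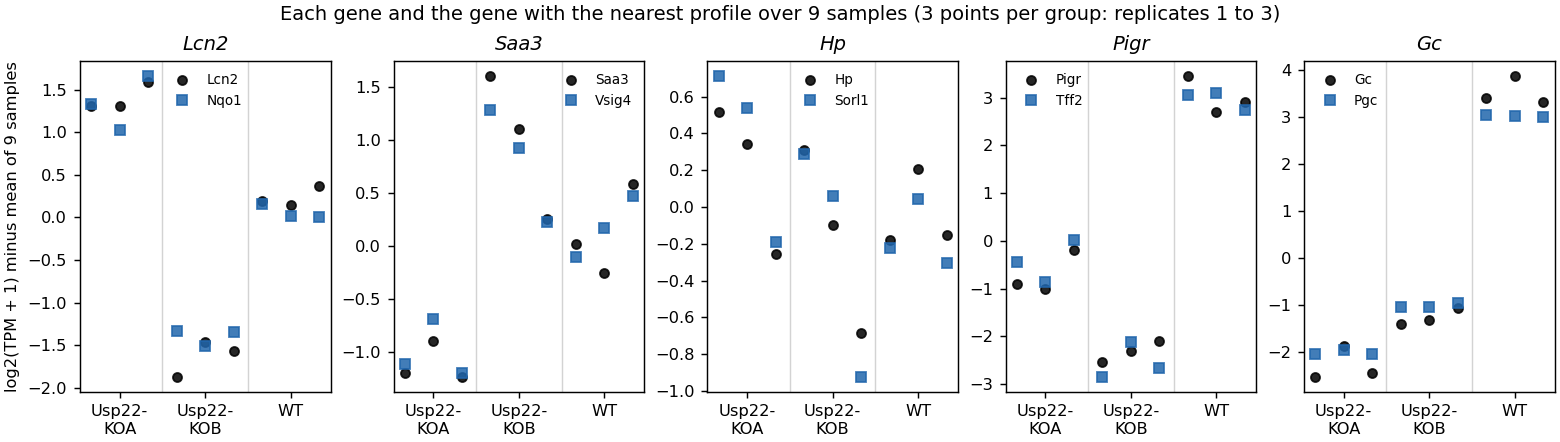
Mean-centred log2(TPM + 1) of Lcn2, Saa3, Hp, Pigr and Gc and of the gene with the nearest profile to each, over 3 samples per group with replicates 1 to 3 from left to right. Lcn2 and Nqo1 are high in Usp22-KOA and low in Usp22-KOB, Saa3 and Vsig4 are low in Usp22-KOA, and Pigr, Gc, Tff2 and Pgc are high in WT.

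Other genes of these pathways were read from 7 lists and tested in the fit across all 13843 genes. A gene was called where limma's Benjamini-Hochberg adjusted p, over all of them, was under 0.05. A gene that averaged under 1 TPM in each knockout could reach the minimum mean of 1 TPM only through WT. Such a gene could enter the fit only as a fall, so its direction was set by the filter. Among the named genes of the lists this holds for Serpina1a, Serpina1c, Duoxa2, Fcgbp, Spdef, Lrp2 and Rab25. Over all tested genes, 50.0% were called in both knockouts minus WT, which is the mean of the knockouts' differences from WT and can pass through 1 knockout alone, 25.9% higher and 24.1% lower, with a median log2 difference of 0.0087. For Usp22-KOA minus WT 56.3% were called, 29.4% higher and 26.9% lower. For Usp22-KOB minus WT it was 37.1%, with 18.7% higher and 18.4% lower, and for Usp22-KOA minus Usp22-KOB 51.7%, with 27.5% higher and 24.2% lower. Both knockouts share the WT samples, so their differences from WT are not independent of each other.

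Other genes listed as positive acute phase, mainly those of plasma proteins whose output rises in inflammation, went both ways. The list also holds genes of other proteins, such as Steap4 and Mt1. Of 32 listed, 21 were tested, and 7 rose, 9 fell and 5 did not pass in both knockouts minus WT, with a median of -0.036. Lbp, which binds bacterial lipopolysaccharide, rose by 1.19 ± 0.07 on the log2 scale (SE, limma adjusted p = 2.4e-06), with 340.3 ± 19.4 TPM in Usp22-KOA, 218 ± 24.5 TPM in Usp22-KOB and 118 ± 4.17 TPM in WT (SD, n = 3 each). Orm3, an orosomucoid, rose by 2.85 ± 0.18, with 34.7 ± 6.46 TPM in Usp22-KOA, 5.29 ± 1.29 TPM in Usp22-KOB and 1.08 ± 0.421 TPM in WT. Serpina1a and Serpina1c, mouse copies of the alpha-1 antitrypsin gene, changed by -3.04 ± 0.16 and -3.12 ± 0.20. Serpina1a averaged 0.279 ± 0.189 TPM in Usp22-KOA, 0.986 ± 0.276 TPM in Usp22-KOB and 12.2 ± 2.26 TPM in WT. The Serpina1 and Orm genes have near-identical copies, so their single values are less certain. Steap4, a metalloreductase, changed by -1.64 ± 0.09. Limma's adjusted p for the last 4 genes was at most 4.3e-06.

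Some positive acute phase genes differed between the knockouts. Itih4, an inter-alpha-trypsin inhibitor heavy chain, averaged 16.7 ± 4.60 TPM in Usp22-KOA, 2.17 ± 0.320 TPM in Usp22-KOB and 6.63 ± 0.997 TPM in WT, in the same order as Lcn2, and Usp22-KOA minus Usp22-KOB was 2.45 ± 0.19 (limma adjusted p = 1.3e-05). The metallothionein Mt1 had a difference of -1.58 ± 0.13, in the same order of the knockouts as Saa3 (limma adjusted p = 1.7e-05). In Usp22-KOA minus Usp22-KOB, 7 of the 21 genes were higher and 11 lower. In Usp22-KOA minus WT 7 were higher and 13 lower, and in Usp22-KOB minus WT 9 were higher and 9 lower.

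Of 15 plasma transport and negative acute phase proteins, to which Gc is related by its role as a carrier, 10 were tested, and 0 rose, 3 fell and 7 did not pass in both knockouts minus WT, with a median of -0.33. Those that passed were Apoa1, an apolipoprotein of high-density lipoprotein, Fetub, a fetuin, and Itih2, another inter-alpha-trypsin inhibitor heavy chain. Their log2 differences were -1.12 ± 0.17, -1.05 ± 0.17 and -1.06 ± 0.18 (limma adjusted p at most 0.0013). Fetub fell in each knockout, by 1.02 ± 0.19 in Usp22-KOA and by 1.07 ± 0.19 in Usp22-KOB (limma adjusted p at most 0.0028). Itih2 fell by 1.71 ± 0.21 in Usp22-KOA (limma adjusted p = 1.3e-04) and did not pass in Usp22-KOB, with a difference of -0.41 ± 0.21. Apoa1 fell by 2.57 ± 0.20 in Usp22-KOA (limma adjusted p = 7.3e-06) and did not pass in Usp22-KOB, with a difference of 0.34 ± 0.20. Apoa1 averaged 1.69 ± 0.514 TPM in Usp22-KOA, 19.1 ± 1.51 TPM in Usp22-KOB and 15.2 ± 4.27 TPM in WT, and Usp22-KOA minus Usp22-KOB was -2.91 ± 0.20 (limma adjusted p = 6.1e-06). Rbp4, the retinol carrier, and Trf, transferrin, lay on opposite sides of WT in the knockouts. Usp22-KOA minus Usp22-KOB was 1.38 ± 0.07 for Rbp4 and -0.69 ± 0.06 for Trf (limma adjusted p at most 2.2e-05).

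Of 28 secreted and mucosal defence proteins listed, 16 were tested, of which 10 fell, 3 rose and 3 did not pass in both knockouts minus WT, and the median was -0.97. Clu (clusterin, a secreted chaperone) averaged 1298 ± 165 TPM in Usp22-KOA, 4117 ± 339 TPM in Usp22-KOB and 8302 ± 8.35 TPM in WT (SD, n = 3 each), a change of -1.85 ± 0.08 (limma adjusted p = 4.7e-07). Pglyrp1, a peptidoglycan recognition protein, changed by -2.06 ± 0.14, Duoxa2, the maturation factor of a dual oxidase, by -2.41 ± 0.15, and Fcgbp, a mucus protein, by -2.38 ± 0.21 (limma adjusted p at most 2.3e-05). Duoxa2 was listed at 0 in all Usp22-KOA samples and averaged 0.0202 ± 0.0349 TPM in Usp22-KOB and 4.41 ± 0.806 TPM in WT.

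Dmbt1 and Agr2 differed between the knockouts in the order of Pigr, with Usp22-KOB the lower. Dmbt1, a scavenger receptor protein of mucosal surfaces, averaged 1614 ± 210.0 TPM in Usp22-KOA, 359 ± 38.0 TPM in Usp22-KOB and 2035 ± 168 TPM in WT. Agr2, a disulfide isomerase of mucus-secreting cells, averaged 573 ± 132 TPM in Usp22-KOA, 18.8 ± 7.09 TPM in Usp22-KOB and 454 ± 104 TPM in WT. Usp22-KOA minus Usp22-KOB was 2.16 ± 0.11 for Dmbt1 and 4.89 ± 0.26 for Agr2 (limma adjusted p at most 1.8e-06).

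**Figure D4:**
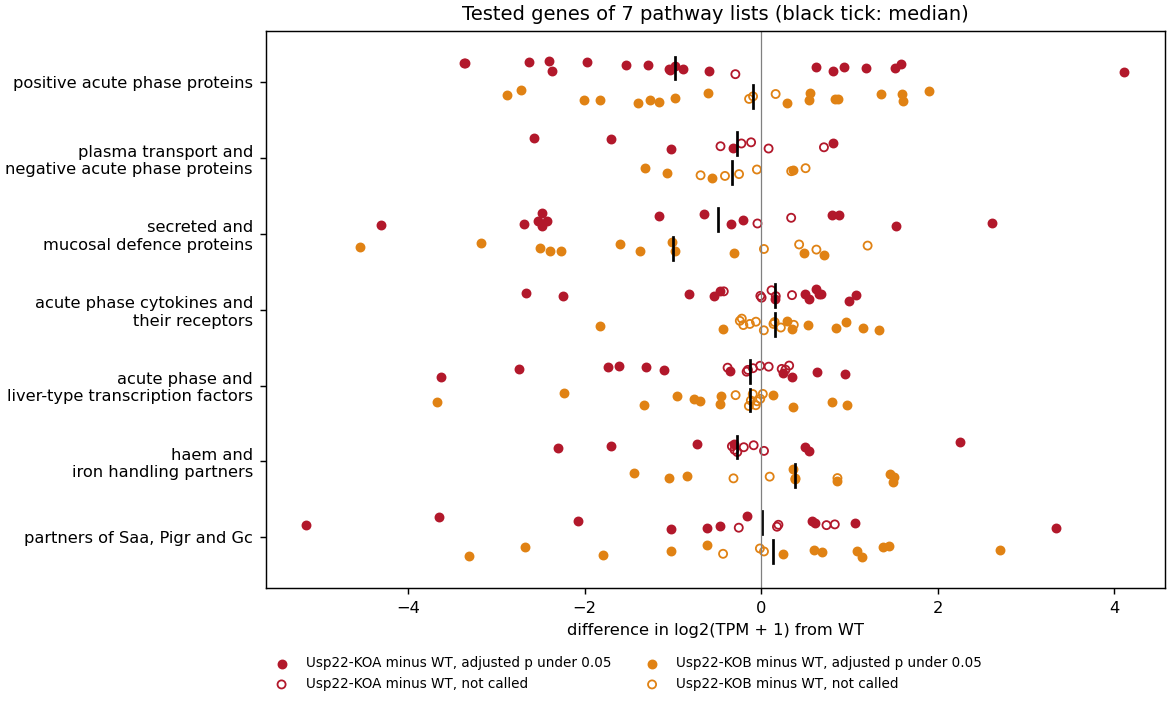
Differences in log2(TPM + 1) from WT of the tested genes in 7 pathway lists, for Usp22-KOA (upper row of each list) and Usp22-KOB (lower row), filled where the limma adjusted p is under 0.05, with black ticks at the medians. Positive acute phase genes spread to both sides of 0, and the medians of secreted and mucosal defence genes lie below 0 in both knockouts.

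Of 23 cytokines of the acute phase response and their receptors, 19 were tested, and 7 rose, 2 fell and 10 did not pass in both knockouts minus WT, with a median of 0.011. Il17re, a receptor chain for interleukin 17C, fell by 2.25 ± 0.12 on the log2 scale, with 0.648 ± 0.219 TPM in Usp22-KOA, 1.93 ± 0.210 TPM in Usp22-KOB and 9.40 ± 0.379 TPM in WT (limma adjusted p = 1.3e-06). Il17ra, Il11ra1 and Il10rb, receptor chains for interleukin 17, interleukin 11 and the interleukin 10 family, rose by 0.76 ± 0.08, 0.74 ± 0.08 and 0.48 ± 0.07 (limma adjusted p at most 4.1e-04). Il1a, a cytokine of injured epithelia, passed through Usp22-KOA, where it fell by 2.25 ± 0.19 on the log2 scale (limma adjusted p = 1.1e-05), while its difference in Usp22-KOB, 0.14 ± 0.19, did not pass. Il1a averaged 2.54 ± 0.908 TPM in Usp22-KOA, 17.3 ± 3.22 TPM in Usp22-KOB and 15.4 ± 0.909 TPM in WT. Usp22-KOA minus Usp22-KOB was 0.97 ± 0.09 for Osmr, the oncostatin M receptor, and -0.89 ± 0.10 for Il1r1, the interleukin 1 receptor (limma adjusted p at most 1.3e-04). Il6, named here after its values were seen, averaged 0.881 ± 0.567 TPM in Usp22-KOA, 2.63 ± 0.842 TPM in Usp22-KOB and 0.836 ± 0.268 TPM in WT. The inducers Il22 and Il17a, named likewise, were listed at 0 in every library.

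Of 22 transcription factors of the acute phase and of liver-type genes, 20 were tested, and 3 rose, 8 fell and 9 did not pass in both knockouts minus WT, with a median of -0.10. Stat3, the factor downstream of interleukin 6, rose by 0.38 ± 0.04, with 117 ± 2.69 TPM in Usp22-KOA, 82.5 ± 1.56 TPM in Usp22-KOB and 75.0 ± 1.86 TPM in WT. The epithelial factors Spdef, Elf3, Foxa1 and Foxa3 changed by -3.65 ± 0.16, -1.53 ± 0.12, -1.93 ± 0.15 and -1.75 ± 0.14. Spdef averaged 0.107 ± 0.105 TPM in Usp22-KOA, 0.0757 ± 0.0903 TPM in Usp22-KOB and 12.9 ± 3.02 TPM in WT. In limma these 5 genes had an adjusted p of at most 5.2e-05.

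Among 13 haem and iron handling partners of Lcn2 and Hp, all tested, 4 rose, 1 fell and 8 did not pass in both knockouts minus WT, with a median of 0.093. This count of 5 called genes was 3 without WT replicate 3 and 8 without Usp22-KOA replicate 3, 3 with a minimum mean of 5 TPM and 1 with the knockouts as 1 group. In Usp22-KOA minus WT 3 were higher and 4 lower, and in Usp22-KOB minus WT 6 were higher and 3 lower. Bdh2, an enzyme linked to the mammalian siderophore, fell by 1.88 ± 0.18 on the log2 scale (limma adjusted p = 3.9e-05). Between the knockouts, 3 were higher and 9 lower in Usp22-KOA. For Heph and Slc40a1, the ferroxidase and the channel of iron export, Usp22-KOA minus Usp22-KOB was 3.10 ± 0.15 and 1.55 ± 0.15, and for Lrp1, a scavenger receptor for haemopexin with its haem, it was -0.66 ± 0.06 (limma adjusted p at most 4.1e-05). Heph averaged 8.72 ± 1.18 TPM in Usp22-KOA, 0.132 ± 0.0469 TPM in Usp22-KOB and 1.04 ± 0.224 TPM in WT. Fth1, the ferritin heavy chain, averaged 2252 ± 220.1 TPM in Usp22-KOA, 4010.3 ± 669 TPM in Usp22-KOB and 2197 ± 43.9 TPM in WT. Hmox1, haem oxygenase 1, averaged 74.6 ± 18.6 TPM in Usp22-KOA, 257 ± 70.4 TPM in Usp22-KOB and 90.9 ± 13.4 TPM in WT. It rose by 1.46 ± 0.24 in Usp22-KOB (limma adjusted p = 0.0019) and did not pass in Usp22-KOA, with a difference of -0.30 ± 0.24. The mean of these opposite differences, 0.58 ± 0.21 with a limma adjusted p of 0.046, no longer passed in 7 of 9 fits that left out 1 sample. Cd163, the haptoglobin-haemoglobin receptor of macrophages, named here after its values were seen, averaged 4.24 ± 1.93 TPM in Usp22-KOA, 46.5 ± 15.1 TPM in Usp22-KOB and 15.9 ± 6.19 TPM in WT. Macrophage markers were also higher in Usp22-KOB, and their part in these differences was not tested.

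Of 19 partners of Saa, Pigr and Gc, 16 were tested, and 7 rose, 5 fell and 4 did not pass in both knockouts minus WT, with a median of 0.011. Mal2, which takes part in transcytosis, the route by which Pigr crosses the cell, changed by -3.91 ± 0.18, and Rab25, a GTPase of apical recycling, by -1.93 ± 0.17. Mal2 averaged 0.711 ± 0.315 TPM in Usp22-KOA, 8.66 ± 2.49 TPM in Usp22-KOB and 59.6 ± 8.55 TPM in WT (SD, n = 3 each). Lrp2 (megalin), the receptor that takes up Gc and Lcn2 into cells, changed by -3.48 ± 0.12, with 0.00366 ± 0.00633 TPM in Usp22-KOA, 0.273 ± 0.126 TPM in Usp22-KOB and 11.6 ± 0.463 TPM in WT. Amn (amnionless), which brings the megalin partner cubilin to the surface, rose by 2.22 ± 0.12, with 29.4 ± 1.95 TPM in Usp22-KOA, 5.36 ± 0.476 TPM in Usp22-KOB and 2.03 ± 0.605 TPM in WT. Tlr4, a receptor of bacterial lipopolysaccharide, rose by 0.60 ± 0.05. For Vdr, the vitamin D receptor, Usp22-KOA minus Usp22-KOB was -1.72 ± 0.14, and it averaged 1.07 ± 0.256 TPM in Usp22-KOA, 5.80 ± 0.698 TPM in Usp22-KOB and 3.19 ± 0.235 TPM in WT. In limma these 6 genes had an adjusted p no higher than 2.8e-05.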

How the data were processed

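TPM per gene for 9 samples was deposited as 1 table by the authors, and each of its sample columns was matched to 1 sample by its label. Salmon, DESeq2 and the mouse build mm10 are named in the submitters' processing notes, while their roles and versions, and the annotation quantified against, were not given in the sources used here. Values were taken as log2(TPM + 1). Genes whose mean reached 1 TPM, 13843 of 24493, entered 1 limma fit of all 9 samples, with a mean per group, an intensity trend and Benjamini-Hochberg adjustment over all of them. The fit was tested on simulated data. Differences are on this log2 scale, and with depth unknown no counting interval is given.

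The 7 genes and all lists were chosen with earlier results of these data known. Named genes are the 7, Usp22, up to 5 called genes per list by adjusted p in both knockouts and up to 3 in Usp22-KOA minus Usp22-KOB, the top 2 of the marker lists and the 2 nearest profiles; exceptions are marked, and a few genes that meet this rule are not reported here. The lists held 152 different genes, 151 of them in the table and 115 tested. Coordinates are from GENCODE M21 (GRCm38, also called mm10), and upstream sequences from RefSeq (GRCm38.p6), where 6 of the 7 genes matched by symbol. Alternatives were other pseudocounts, filters, scalings, fits and subsets of samples. The versions used were R 4.3.3 and limma 3.58.1, with Python 3.11.15, pandas 2.3.3, Biopython 1.88 and matplotlib 3.10.9 for the rest.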

Additional observations from a re-analysis of the deposited data

Results flagged for a closer look

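Of 50 genes looked at, the 5 fitted genes and the named pathway genes, 15 had every Usp22-KOA sample on one side of the WT mean and every Usp22-KOB sample on the other. The share of all tested genes that meet this rule was not counted, so nothing is read from the 15. The share of 6.63% given above is for the stricter rule of no overlap with WT. The 15 were not counted by that rule, so this share cannot be set against them. For Lcn2 Usp22-KOA minus Usp22-KOB was 3.03 and for Saa3 -2.10 on log2(TPM + 1), and these differences were not tested because the genes were chosen on these values. For the pathway genes limma's test of the difference itself passed. All of them except Hmox1 met the naming rule through a small adjusted p in that same difference. Their passing was thus fixed by the choice and adds no support. Usp22-KOA was above Usp22-KOB by 4.89 for Agr2, 3.10 for Heph, 2.45 for Itih4, 1.55 for Slc40a1, 1.38 for Rbp4 and 0.97 for Osmr. The difference was -2.91 for Apoa1, -1.76 for Hmox1, -1.72 for Vdr, -1.58 for Mt1, -0.89 for Il1r1, -0.69 for Trf and -0.66 for Lrp1. Limma's adjusted p for these 13 genes ran from 8.8e-07 (Heph) to 3.6e-04 (Hmox1).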

How the results depend on the processing

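The directions of Lcn2, Saa3, Pigr and Gc in each knockout held under every setting run. With a pseudocount of 0.1 Gc differed from WT by -7.63 in Usp22-KOA and -5.38 in Usp22-KOB, and Pigr by -6.09 in Usp22-KOB. With a pseudocount of 5 Gc differed by -3.85 and -3.53 in Usp22-KOA and Usp22-KOB, and Pigr by -3.11 and -3.91. Treating the 6 knockout samples as 1 group, chosen after seeing the data, called 2946 genes in place of 6920. It also called 1 transport protein, 8 mucosal defence proteins, 5 cytokines or receptors, 5 transcription factors and 1 haem or iron gene, and the calls of 10 named genes ended: Apoa1, Itih2, Dmbt1, Il1a, Foxa3, Stat3, Heph, Fth1, Slc11a2 and Hmox1. With a minimum mean of 5 TPM, 10 positive acute phase genes and 3 haem or iron genes were called, and with no filter 5 transport proteins. Leaving out 1 sample at a time gave 5581 to 7384 called genes in both knockouts minus WT, 11 to 17 positive acute phase proteins, 3 to 5 transport proteins and 3 to 8 haem or iron genes, the 3 of the last without WT replicate 3, and the 5 and 8 without Usp22-KOA replicate 3. Without replicate 3 of both knockouts, also chosen after seeing the data, 5 transport proteins and 9 haem or iron genes were called. The causes were not tested. Replicate numbers were shared by the groups, and 2 of 9 same-numbered pairs deviated together with a correlation over 0.1. Both lay between the knockouts, at 0.19 and 0.28 against 0.077 for replicate 2, and all 3 of these comparisons matched best with their own number, a hint of pairing from the data and not from the design. With WT, 2 of 6 did so and no correlation passed 0.1, so the numbers were not taken to pair the samples. The fit with the replicate number as a block called 6702 genes in both knockouts minus WT and 6922 in Usp22-KOA minus Usp22-KOB. In both knockouts replicate 3 had the lowest leukocyte, macrophage and neutrophil marker sums and the lowest Hp.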

Other observations

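Among the marker lists, 3 genes of defence and of neutrophils, chosen after their values were seen, differed in how they ordered the groups. Ltf (lactoferrin), an iron-binding protein of secretions and of neutrophil granules, averaged 0.874 ± 0.363 TPM in Usp22-KOA, 0.680 ± 0.405 TPM in Usp22-KOB and 30.5 ± 4.45 TPM in WT (SD, n = 3 each). It fell in both knockouts by 4.17 ± 0.18 on the log2 scale (limma adjusted p = 5.5e-07). Ltf too reached the minimum mean of 1 TPM only through WT, so it could enter the fit only as a fall. Ly6g, a surface protein of mouse neutrophils, averaged 20.8 ± 2.50 TPM in Usp22-KOA, 0.354 ± 0.308 TPM in Usp22-KOB and 0.806 ± 0.185 TPM in WT, and its 3 values in Usp22-KOA lay between 19.3 and 23.7 TPM while the neutrophil sum ran from 618 to 1563 TPM. Retnlg, a resistin-like protein of neutrophils, averaged 38.9 ± 24.2 TPM in Usp22-KOA, 107 ± 49.1 TPM in Usp22-KOB and 18.3 ± 9.82 TPM in WT.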
